A study of Homo sapiens with 12 samples.

Results

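Replication-dependent histone mRNAs were followed through the RNA crosslinked to 4 subunits of eIF3 in 293T cells, a line derived from human embryonic kidney. The members are the 10 histone genes HIST1H1C, HIST1H1E, HIST1H2AC, HIST1H2AD, HIST1H2AM, HIST1H2BN, HIST1H2BO, HIST1H3B, HIST1H3J and HIST1H4C, taken by gene name from the authors' table. They are 10 of its 479 genes and hold 29 of its 1477 clusters, a cluster being a stretch of RNA where reads of 1 subunit piled up. All 10 names matched RefSeq as older symbols of protein-coding histone genes, so the label fits the names. HIST1H2BJ, the only other listed gene with a HIST name, is not a member and is described apart.

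The groups are eIF3a, eIF3b, eIF3d and eIF3g, with 3 libraries each and 12 in all. Every group shares the same treatment, 100 µM 4-thiouridine for 14 h and crosslinking at 0.15 J per square cm, and the same immunoprecipitation with an antibody against eIF3b. Complexes were then cut from a denaturing gel. PAR-CLIP reads a crosslinked 4-thiouridine as a T-to-C conversion. The deposited table gives 1 value per cluster and subunit with no replicate column, so the spread between libraries is unknown for every value and no difference between subunits can be tested. No control library is among the labels, and the lists came through 1 antibody and are not independent.

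Replication-dependent histone genes supply the proteins that package new DNA during S phase. Their mRNAs have short leaders and usually no intron, and they end in a conserved stem-loop bound by SLBP in place of a poly(A) tail. H2A, H2B, H3 and H4 form the core of the nucleosome, and H1 binds the linker DNA between nucleosomes. eIF3 is the initiation factor that helps bring the small ribosomal subunit to mRNA.

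Clusters inside the lists held between 15132 reads in eIF3a and 62405 in eIF3g. Reads outside clusters are not tabulated, so depth per library is unknown and read counts of different subunits are not amounts of bound RNA. Counts are per cluster and are not set against the length or abundance of the mRNA, so an order of genes by reads is an order within these lists. No cluster of the table has fewer than 8 reads, and a gene missing from a list may lie below that level. Of 10 genes associated with the 293T line and 13 markers of other cell types, 0 had a cluster, which says little about a list of bound sites.

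The first question was where on histone mRNA eIF3 was found. Most histone clusters lay at the start codon or in the coding exon, and few were annotated to the 5′ UTR. Of the 29 clusters, 26 had one of these annotations, or 89.7% (95% Clopper-Pearson interval 72.6 to 97.8), against 175 of 1448 other clusters, or 12.1% (10.5 to 13.9). Such annotations covered 13.6% of clusters over all genes. Intervals cover counting error only, and clusters of 1 gene share their RNA, so the histone interval is too narrow. With start codon clusters counted as 5′ UTR, since they may reach into the leader, coding exons held 41.4% and the leader 58.6%. The contrast is a description of the deposited lists, without a test.

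Start codons held 14 histone clusters in 5 genes (HIST1H1C, HIST1H1E, HIST1H2AD, HIST1H2BO and HIST1H3J), 48.3% of the 29, beside 3.79% in the whole table. Coding exons held 12 clusters in 5 genes (HIST1H1C, HIST1H2AC, HIST1H2AM, HIST1H3B and HIST1H4C), 41.4%, beside 9.82%. HIST1H1C stands in both counts. The 5′ UTR held 3 clusters, all of HIST1H2BN, 10.3%, beside 67.8% in the whole table. In introns, 3′ UTRs and noncoding RNA the histone members had 0 of 29 clusters. The members were chosen with earlier results known, and HIST1H2BJ, the HIST gene left out, had intronic clusters in all 4 lists. The 0 for introns thus depends on the choice of members. With HIST1H2BJ added, the share at start codons or in coding exons was 78.8%.

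Seen from the other side, the 10 histone genes gave 14 of the 56 start codon clusters of the table, 25%, and 615 of their 2204 reads, 27.9%. By genes they were 5 of 23, or 21.7%. Reads at the start codon were summed over subunits to rank these 23 genes. SNRPA (419) and BIRC5 (375) came first, then HIST1H2AD (294), HIST1H2BO (172) and HIST1H1E (130). Such a sum favours genes with a start codon cluster in all 4 lists, as each of these had. The part of the 10 histone genes in coding exons was smaller, 12 of 145 clusters (8.28%) and 1.16% of the reads. In 5′ UTRs it was 3 of 1001 clusters.

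**Figure D1:**
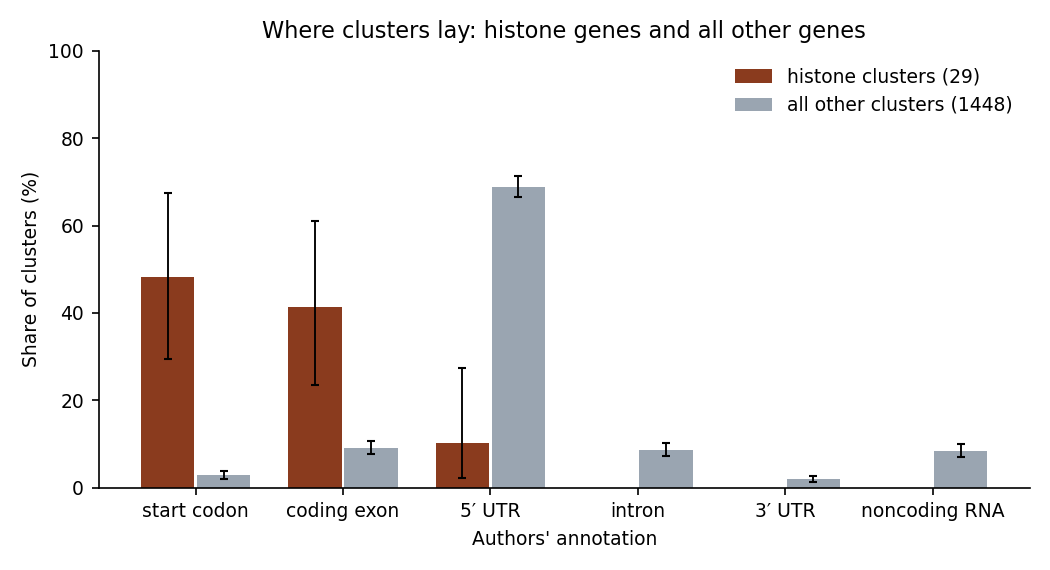
Share of clusters (%, vertical axis) by the authors' annotation for the 29 histone clusters (brown, left) and the 1448 other clusters (grey, right), with 95% Clopper-Pearson intervals as bars where a share is above 0. Start codons held 48.3% of histone clusters and 2.90% of the others, while 5′ UTRs held 10.3% and 68.9%.

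The letters around the start are shown for members with an ATG close to the transcription start, and for how alike histone genes can be. RefSeq windows running from the transcription start to base 50 (GRCh38.p14) were found for 8 of the 10 members, all but HIST1H3J and HIST1H4C. A first ATG (letters ATG, transcript strand alone) lay inside these 50 bases in 4 of 8, after 36 bases in HIST1H2AM, 38 in HIST1H2BO, 39 in HIST1H3B and 42 in HIST1H1C. HIST1H1E, HIST1H2AC, HIST1H2AD and HIST1H2BN had none there. Of 15843 protein-coding genes with such a window, 35.6% had an ATG there, and so did 23.6% of the 347 among them that the authors listed. Bases 21 to 50 of the 4 members are shown with that ATG in capitals; they are not the cluster sequences, which need the hg19 genome, and a reading frame was not checked.
HIST1H1C (chr6:26056421-26056450, minus strand): acccgagtttttgattctcaacATGtccga
HIST1H2AM (chr6:27893136-27893165, minus strand): cacaggtcgttttaccATGtctggacgtgg
HIST1H2BO (chr6:27893445-27893474, plus strand): ctttcactctcctccgccATGcccgacccg
HIST1H3B (chr6:26032050-26032079, minus strand): gcttttctgtggttttgccATGgctcgtac

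None of these 30-base runs occurred in the 300-base window of another gene. From the ATG on, the 12 bases of HIST1H2BO matched 0 other gene starts. The 8 bases of HIST1H1C matched the starts of FANCA and KAT2B, which are not histone genes. The 14 bases of HIST1H2AM, however, matched the start of the H2A gene H2AC11. Those of HIST1H3B, 11 bases, matched that of the H3 gene H3C3. Sequence outside these windows was not searched, so a count of 0 does not make a run unique. Coding sequences of histones of 1 type can thus share runs of bases. The labels and the header do not say how reads that match several copies were treated. The gene named for a start codon or coding exon cluster is uncertain where copies match, which was not checked for the clusters themselves. T made up 24% of the first 50 bases in HIST1H1E, 48% in HIST1H2AD and 52% in HIST1H2AC, with a median of 33% over the 8 members, against 18% over all protein-coding windows and 20% over those of genes in the authors' table. Only T positions can carry 4-thiouridine, and whether base composition moves with the cluster counts was not tested.

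Linker histone H1 was represented by 2 genes of very different level. HIST1H1E, which encodes the linker histone H1.4, had 44 reads for eIF3a, 21 for eIF3b, 40 for eIF3d and 25 for eIF3g, all at the start codon. In hg19 its clusters lay on chromosome 6, plus strand, between 26156590 and 26156636. Their starts differed by up to 5 nt and their ends by up to 16 nt, with the eIF3d cluster reaching farthest downstream. By reads it stood at percentile 77.3 of the eIF3a list, 55.7 of eIF3b, 72.6 of eIF3d and 57.4 of eIF3g, above the middle of every list.

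HIST1H1C, which encodes H1.2, had 10 reads in eIF3b, called coding exon (chromosome 6, minus strand, 26056630 to 26056647), and 8 in eIF3d, called start codon (26056639 to 26056665). The clusters overlap only in part, with starts 9 nt and ends 18 nt apart, and their annotations differ. Its level was near the floor of both lists, at percentiles 11.7 and 1.12.

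H2A was the type with most reads, 390 of the 854 histone reads (45.7%) over 3 genes and 10 clusters. HIST1H2AD gave 294 of these, HIST1H2AC 80 and HIST1H2AM 16, so the lead of H2A rests on HIST1H2AD. Such sums add unscaled counts of the lists. HIST1H2AD led all members. Its start codon cluster had 83 reads for eIF3a, 9 for eIF3b, 109 for eIF3d and 93 for eIF3g. The eIF3b count is low and the other 3 are high. Its exact 95% Poisson interval is 4.12 to 17.1 reads and that of eIF3a 66.1 to 103, which covers counting error but neither depth nor the spread between libraries. The place was the same in each list: on chromosome 6, minus strand, every cluster ended at 26199479, its 5′ edge, and started at 26199459 or 26199460. By rank it was high in eIF3a (percentile 91.3), eIF3d (92.9) and eIF3g (88.4) and low in eIF3b (7.72).

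HIST1H2AC, another H2A gene, was listed for every subunit but not at 1 place. A coding exon cluster from 26124585 to 26124607 (chromosome 6, plus strand) had 20 reads in eIF3a, 27 in eIF3d and 8 in eIF3g, with identical edges. eIF3b had instead 13 reads from 26124506 to 26124543, upstream of it, and eIF3d had a second cluster downstream, from 26124740 to 26124762, with 12 reads. These 3 sites span 256 nt, all within the coding exon. HIST1H2AM had 16 reads, in eIF3a alone, in its coding exon (chromosome 6, minus strand, 27860859 to 27860884).

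H2B had 233 reads over 2 genes, with 2 different annotations. HIST1H2BO had 60 reads for eIF3a, 13 for eIF3b, 63 for eIF3d and 36 for eIF3g at its start codon. Again eIF3b was the lowest, at percentile 29.5, against 86.3 in eIF3a, 86.0 in eIF3d and 74.2 in eIF3g. All its clusters began at 27861210 (chromosome 6, plus strand) and ended between 27861237 and 27861247. The letters shown above for HIST1H2BO put an ATG after 38 bases of leader.

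HIST1H2BN was the only member with 5′ UTR clusters. It had 21 reads in eIF3b, 27 in eIF3d and 13 in eIF3g, all from 27806326 to 27806350 (chromosome 6, plus strand), and was not listed for eIF3a. In eIF3b this gene shared the highest histone rank with HIST1H1E, at percentile 55.7. HIST1H2BN and HIST1H2BO thus ran in different orders: in eIF3b the first had more reads than the second, and in eIF3d and eIF3g fewer.

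H3 and H4, the types that form the centre of the core, had the fewest reads, 53 and 30. HIST1H3B had 14 reads in eIF3a, 13 in eIF3d and 15 in eIF3g in its coding exon, starting at 26032025 on chromosome 6, minus strand. These counts hardly differ. HIST1H3J had 11 reads, in eIF3d alone, at its start codon (27858557 to 27858581, minus strand). HIST1H4C had 12 reads in eIF3b and 18 in eIF3d in its coding exon, at the same edges (26104459 to 26104485, plus strand). No H3 gene was listed for eIF3b, and no H4 gene for eIF3a or eIF3g, with 2 H3 genes and 1 H4 gene among the members. Of all 479 genes, 55.1% were listed for eIF3b, 68.5% for eIF3a and 73.3% for eIF3g. With so few genes these absences do not set a histone type apart.

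**Figure D2:**
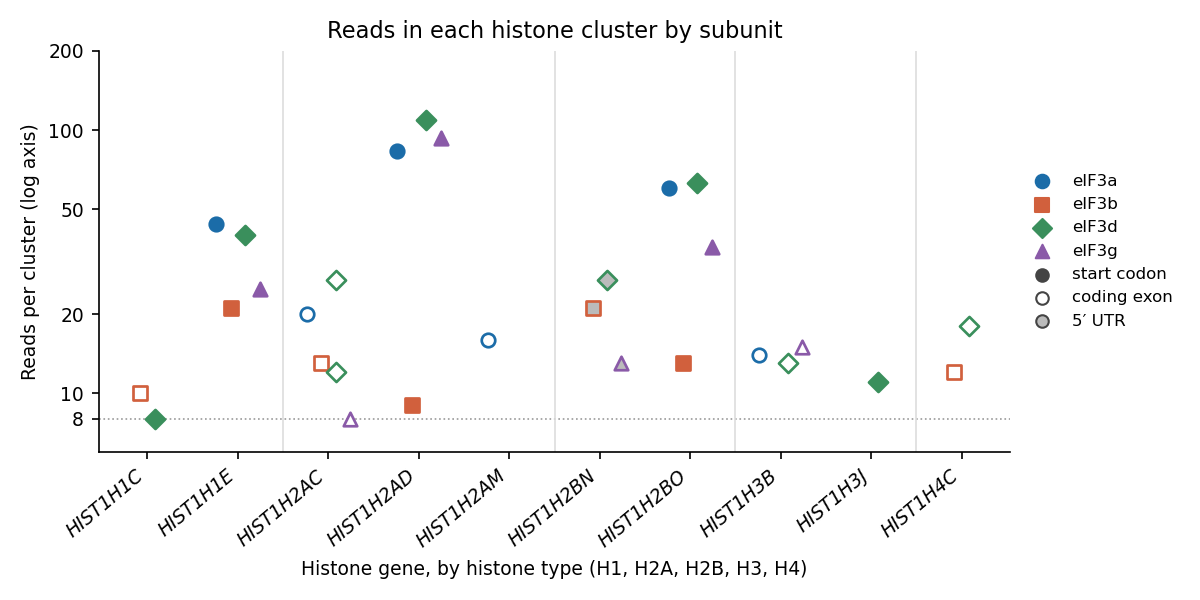
Reads per cluster (log axis) for the 10 histone genes, ordered by type, with colour and shape for the subunit and fill for the annotation (full for start codon, open for coding exon, grey for 5′ UTR). The dotted line marks 8 reads, the lowest count in the table; HIST1H2AD spans 9 reads in eIF3b to 109 in eIF3d.

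Start codon clusters of the members had a median of 38 reads (range 8 to 109), against 13.5 (8 to 27) for their coding exon clusters. Most start codon clusters came from HIST1H2AD, HIST1H2BO and HIST1H1E, with 4 each. Those of HIST1H1C (8 reads) and HIST1H3J (11 reads) lay below 13.5, as did HIST1H2AD (9) and HIST1H2BO (13) in eIF3b. In all other genes the medians were 23.5 at start codons and 19 in coding exons. By rank within the lists the histone medians were percentile 73.4 at start codons and 29.9 in coding exons. Start codons took 615 of the 854 histone reads, 72.0%, and HIST1H2AD alone 294.

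**Figure D3:**
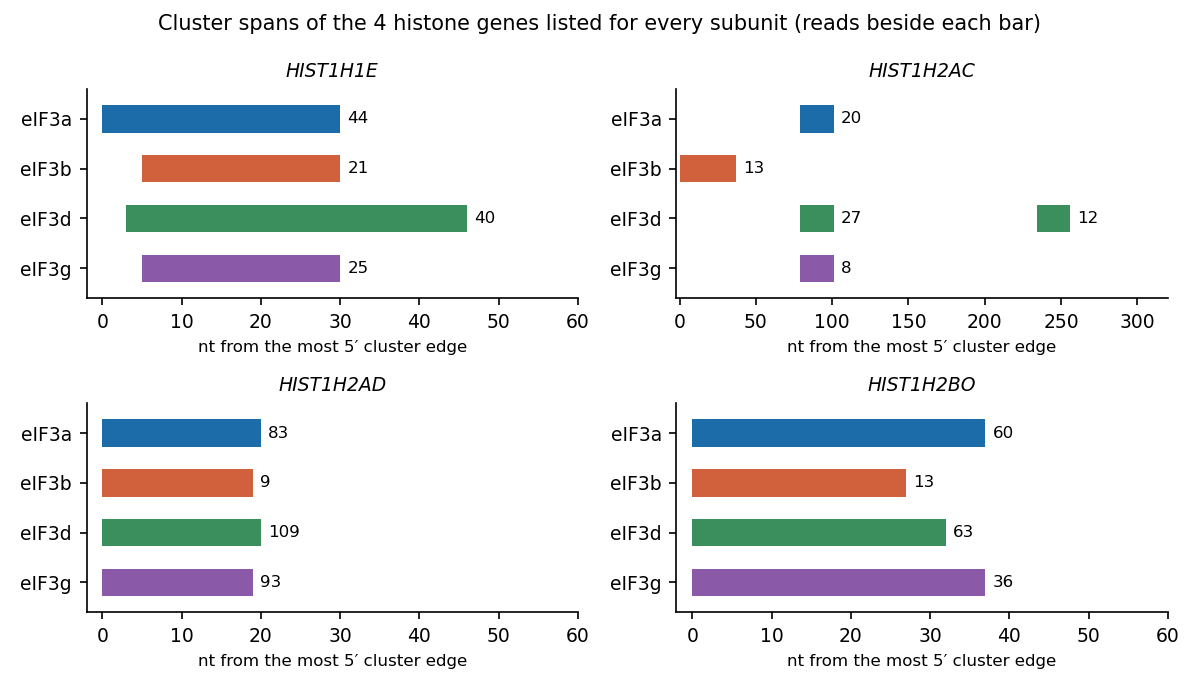
Span of each cluster in nt from the most 5′ cluster edge of its gene, in the direction of transcription, for the 4 histone genes listed for every subunit, with reads beside each bar. The HIST1H2AD and HIST1H2BO clusters share their 5′ edge in all lists, while HIST1H2AC has 3 separate sites.

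How far the subunits shared histone targets was asked next. Of the 10 genes, 6 were listed for eIF3a, 7 for eIF3b, 9 for eIF3d and 6 for eIF3g, where 68.5%, 55.1%, 74.3% and 73.3% of all 479 genes were listed. HIST1H1E, HIST1H2AC, HIST1H2AD and HIST1H2BO were listed for all 4, which is 40% of the members and close to the 33.6% of all genes. By position it was 3 of 12 loci, since HIST1H2AC had no site in common to all 4, and 173 of 558 loci in the table. HIST1H2BN and HIST1H3B were listed for 3 subunits, HIST1H1C and HIST1H4C for 2, and HIST1H2AM and HIST1H3J for 1. At the 8 histone loci of 2 or more subunits, the starts differed by a median of 0 nt and the ends by 2 nt, where all 439 such loci of the table had medians of 0 and 0 nt.

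Reads at shared loci were then set side by side, as log2(reads + 1) without scaling, with 2-fold as the mark for a call. At the 3 histone loci shared by eIF3b and eIF3a, all 3 were past 2-fold lower in eIF3b, as were 22.3% of all 229 shared loci. HIST1H2AD had 9 reads in eIF3b and 83 in eIF3a, a log2 difference of -3.07 at percentile 0.655 of these loci. HIST1H2BO had 13 in eIF3b and 60 in eIF3a (-2.12, percentile 2.40), and HIST1H1E 21 in eIF3b and 44 in eIF3a (-1.03, percentile 20.3). The median over all shared loci was -0.26. Scaled by the reads in clusters, a setting added after seeing the data, the 3 differences were -3.55, -2.55 and -1.41, all past 2-fold lower as were 35.8% of all loci. Only loci listed for both subunits enter. Left out were histone loci of eIF3b without an eIF3a cluster, in HIST1H2BN (21 reads), HIST1H2AC (13), HIST1H4C (12) and HIST1H1C (10). Loci of eIF3a without an eIF3b cluster, in HIST1H2AC (20), HIST1H2AM (16) and HIST1H3B (14), were left out likewise.

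Set against eIF3b, eIF3d was past 2-fold higher at 2 of 6 histone loci, where 27% of all loci were: HIST1H2AD with 109 reads in eIF3d and 9 in eIF3b (log2 difference 3.46, percentile 98.9) and HIST1H2BO with 63 in eIF3d and 13 in eIF3b (2.19, percentile 92.8). For eIF3g over eIF3b it was 2 of 4, where 28.3% of all were, again HIST1H2AD (3.23, percentile 94.2) and HIST1H2BO (1.40, percentile 80.9). With the scaling, eIF3d over eIF3b stayed at 2 of 6 higher (20% of all loci). For eIF3g over eIF3b HIST1H2AD was then at 1.67 and HIST1H2BO at -0.23, with 1 of 4 past 2-fold higher (7.73% of all) and 2 of 4 lower (64.4% of all), so for HIST1H2BO the order of eIF3g and eIF3b is not settled. These comparisons share lists and rest on the same low eIF3b counts.

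Between eIF3d and eIF3a, 0 of 5 histone loci were past 2-fold in either direction, where 17.7% of all 299 shared loci were higher and 7.69% lower. The differences ran from -0.13 for HIST1H1E (40 reads in eIF3d, 44 in eIF3a) to 0.42 for HIST1H2AC (27 in eIF3d, 20 in eIF3a). Scaled by the reads in clusters they ran from -0.81 to -0.24, with the sign turned at 3 of 5 loci and still 0 past 2-fold, where 4.35% of all loci were higher and 26.1% lower. For eIF3g over eIF3a, 1 of 5 was past 2-fold lower, where 18% of all were: HIST1H2AC, with 8 reads in eIF3g and 20 in eIF3a. With the scaling it was 5 of 5, from -3.37 to -1.88, where 79.9% of all loci were lower. For eIF3g over eIF3d it was 2 of 6 lower, where 18.4% of all were: HIST1H2AC with 8 reads in eIF3g and 27 in eIF3d, and HIST1H2BN with 13 in eIF3g and 27 in eIF3d. With the scaling it was 6 of 6, from -3.12 to -1.16, where 64.5% of all loci were lower. The place of eIF3g against eIF3a and eIF3d thus depends on the scaling, for histones as for all loci, and with so few loci these shares cannot be set apart from those of all loci.

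Ranks within a list need no scaling, but every list is cut at 8 reads and the lists differ in length (375, 298, 403 and 401 clusters), so depth can move a percentile through the low clusters that enter. The median histone percentile was 62.5 for eIF3a (6 clusters), 29.5 for eIF3b (7), 48.3 for eIF3d (10) and 44.6 for eIF3g (6), where a whole list has its middle at 50 by construction. The highest member stood at percentile 55.7 in eIF3b and at 91.3, 92.9 and 88.4 in eIF3a, eIF3d and eIF3g. Histone reads made up 1.57% of the cluster reads for eIF3a, 0.516% for eIF3b, 1.36% for eIF3d and 0.304% for eIF3g. These shares depend on the largest clusters of a list. The eIF3g total of 62405 reads includes a cluster of 14879, with a median of 20 per cluster. In eIF3a the largest cluster had 684 reads and the median was 22.

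**Figure D4:**
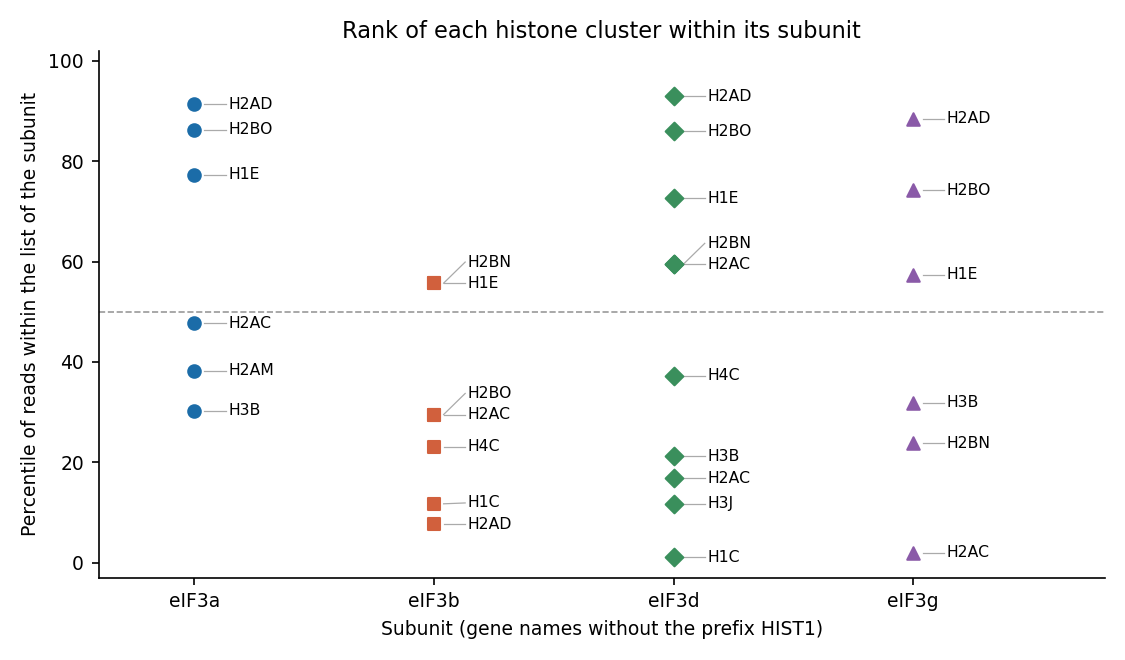
Percentile of each histone cluster by reads within the list of its subunit, with the middle of the list as a dashed line. HIST1H2AD stands at 91.3, 92.9 and 88.4 in eIF3a, eIF3d and eIF3g and at 7.72 in eIF3b.

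HIST1H2AD has the most reads among members listed for every subunit, so its profile of ranks was compared with the 157 other genes of all 4 lists that are not members. The nearest by Euclidean distance over the 4 percentiles of reads per gene were ARF4 (distance 19.4), LRRC59 (21.4) and CDC25A (26.2). ARF4 had 43 reads for eIF3a, 8 for eIF3b, 55 for eIF3d and 129 for eIF3g. LRRC59 and CDC25A had 8 and 10 reads in eIF3b, against 79 and 34 in eIF3a. All 3 carried 5′ UTR clusters, and ARF4 also had 1 or more in a coding exon.

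T-to-C conversions per read of histone clusters were near those of the lists they came from. Medians were 1.08 for histones and 1.02 for all clusters in eIF3a, 1.0 and 1.05 in eIF3b, 0.180 and 0.182 in eIF3d, and 1.0 and 1.02 in eIF3g. Outside eIF3d the 19 histone clusters ran from 0.583, HIST1H4C in eIF3b with 7 conversions in 12 reads, to 1.27, HIST1H3B in eIF3g with 19 in 15 reads. All clusters of those lists ran from 0.0175 to 2, so no histone cluster lay at either end.

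HIST1H2AD had 98 conversions in 83 reads in eIF3a, 9 in 9 in eIF3b and 94 in 93 in eIF3g, but 4 in 109 in eIF3d, or 0.0367 per read. The other eIF3d values of histones reached 0.5 per read, in HIST1H1C with 4 conversions in 8 reads. HIST1H2BO had 11 conversions in 63 reads in eIF3d and 69 in 60 in eIF3a. The low level of eIF3d is shared by the whole list, so it is not particular to histones, and neither the labels nor the header say what its conversion entries count.

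**Figure D5:**
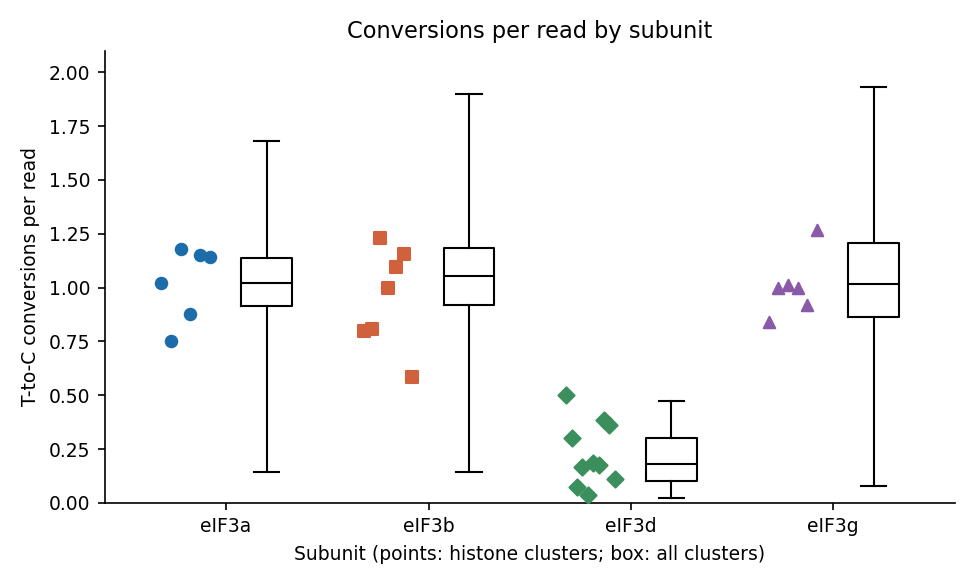
T-to-C conversions per read of histone clusters (points) and of all clusters (box for quartiles and median, whiskers from percentile 5 to 95) in each subunit. Histone points lie around 1 in eIF3a, eIF3b and eIF3g and at or below 0.5 in eIF3d.

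On chromosome 6 the members fell into 2 groups, 6 genes within 167 kb (26032025 to 26199479) with 594 reads and 4 genes within 54.9 kb (27806326 to 27861247) with 260 reads, apart by 1607 kb. HIST1H2AM and HIST1H2BO, on opposite strands, had clusters only 326 nt apart. HIST1H2BO was listed for all 4 subunits and HIST1H2AM for eIF3a alone. The reference table holds 71 protein-coding genes with an older HIST name, of which 11 were listed: 2 of 6 for H1, 3 of 17 for H2A, 3 of 18 for H2B, 2 of 15 for H3 and 1 of 15 for H4. Of all 20056 protein-coding genes of that table, expressed or silent, 432 (2.15%) were matched to a listed gene.

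The 11th is HIST1H2BJ, an H2B gene whose clusters were annotated as intronic, unlike any member. It had 11 reads for eIF3a, 18 for eIF3b, 18 for eIF3d and 53 for eIF3g, with 9, 12, 6 and 15 conversions (chromosome 6, minus strand, 27100098 to 27100133). In eIF3g its 0.283 conversions per read were below those of every member in that list.

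Replacement and variant histones, which are made outside S phase as well, differed from the members in annotation. Of 15 such genes 3 had a cluster, while 2.15% of all protein-coding genes were listed. All 9 clusters of these 3 genes, 4 of them of H1FX, were in 5′ UTRs, with 0 at start codons or in coding exons. The members had 3 of 29 in 5′ UTRs. The 5′ UTR is the usual place in this table, with 67.8% of all clusters. H1FX, a variant linker histone, had 111 reads for eIF3a, 46 for eIF3b, 87 for eIF3d and 36 for eIF3g. H2AFX, the H2A variant phosphorylated at DNA breaks, had 40 in eIF3a and 47 in eIF3d, and H3F3B, a gene of the replacement histone H3.3, had 15, 10 and 27 in eIF3a, eIF3d and eIF3g. The median of the 9 variant clusters was 40 reads, against 18 for the members. H3F3B lay at 10 to 27, and both medians pool unscaled counts over different mixes of subunits.

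Of 39 genes for factors that make, process or degrade histone mRNA 1 was listed, while 2.15% of all protein-coding genes were. It was SNRPD3, an Sm protein that is also part of the U7 particle for histone 3′ ends, with 15, 16 and 18 reads in eIF3b, eIF3d and eIF3g in its 5′ UTR. SLBP had no cluster. Of 21 histone chaperones and carriers 3 were listed. ANP32E, a chaperone of the variant H2A.Z, had 33 reads for eIF3a, 25 for eIF3b, 28 for eIF3d and 19 for eIF3g in its 5′ UTR. NCL, or nucleolin, had 8 reads in eIF3a and 16 in eIF3g in its 5′ UTR, and SET, a histone-binding protein, had 11 reads in both eIF3d and eIF3g at its start codon.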

How the data were processed

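Members and gene lists were chosen with earlier results of these data known. The authors deposited 1 table of clusters with whole-number counts of reads and of T-to-C conversions, not normalized, per the file headers, with hg19 positions. Other values, such as cluster start and end, are printed as deposited; the counting base, 0 or 1, is not stated by labels or header, so widths and gaps are end minus start. The submitters' processing notes name hg19, cutadapt, Bowtie and bedtools. Neither they nor the labels state the cluster caller, its thresholds or how the 3 replicates were pooled. The labels do not say whether replicates were separate cultures.

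Here 480 gene names, of which a pair differed only in case, gave 479 genes. Joining clusters that overlap on 1 strand (minimum 1 nt) gave 558 loci. Percentiles are midranks within a subunit, shares carry exact 95% intervals, and log2 differences use a pseudocount of 1. No replicate column exists, so the count test on libraries that was set out at the start could not be made. Functions were tested on simulated data (Python 3.11.15, pandas 2.3.3, scipy 1.17.1). Named genes are all members, other HIST genes, every listed gene of the histone variant, histone mRNA and chaperone lists, and the 3 genes nearest to HIST1H2AD; SNRPA and BIRC5 were added after their values were seen. Sequences are from RefSeq (GRCh38.p14), and no coordinate was converted between builds.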

Additional observations from a re-analysis of the deposited data

How the results depend on the processing

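No paired analysis was possible because the table has no column for replicates; for the same reason no replicate could be left out. The share of histone clusters at start codons or in coding exons was 84.6% when clusters below the median reads of their list were dropped, 90% by genes, 78.8% with HIST1H2BJ added and 88% without HIST1H2AD, an alternative chosen after seeing the data. With start codon clusters counted as 5′ UTR, it was 41.4% and the 5′ UTR share 58.6%, by construction. Genes listed for all 4 subunits were 1 in place of 4 when clusters below the median reads were left out, since fewer clusters enter. With HIST1H2BJ added, median reads in eIF3a were 20 in place of 32. Summed conversions over summed reads, used in place of the median per read, were 1.08, 0.960, 0.155 and 0.989 in eIF3a, eIF3b, eIF3d and eIF3g. For clusters at or above the median reads, median conversions per read were 1.15, 0.952, 0.175 and 0.917 in the same order. With HIST1H2BJ added the medians were 1.02, 0.905 and 0.185 in eIF3a, eIF3b and eIF3d. The median percentile within coding exon and start codon clusters alone was 61.4, 36.3, 41.8 and 63.8 in eIF3a, eIF3b, eIF3d and eIF3g, and by reads per gene 59.0, 28.2, 56.9 and 42.2. eIF3b was the lowest of the 4 under both, and eIF3g changed its place. Scaling by the reads in clusters, chosen after seeing the data, turned 8 log2 differences below 0. For eIF3d over eIF3a they came to -0.24 in HIST1H2AC, -0.28 in HIST1H2AD and -0.60 in HIST1H2BO. For eIF3g over eIF3a they came to -1.88 in HIST1H2AD and -1.94 in HIST1H3B, for eIF3g over eIF3b to -1.45 in HIST1H1E and -0.23 in HIST1H2BO, and for eIF3g over eIF3d to -1.16 in HIST1H3B. This follows from the denominators, the summed reads of all clusters. HIST1H2AD for eIF3g over eIF3b was 1.67 in place of 3.23. Clusters of 8 to 20 reads, most of those in eIF3b, have wide counting error.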
